A study of Mus musculus with 48 samples.

Results

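The interleukin-6 family was followed here as 10 genes of the thoracic aorta transcriptome: the ligands Il6, Il11, Lif and Osm, the receptor chains Osmr, Il6ra, Il6st and Lifr, and the signalling genes Socs3 and Stat3. They were taken by symbol as the 10 rows for these names in a table of 18782 genes. That rule uses none of their values, but the family was chosen with earlier results of these data known. The shares of all tested genes given beside member counts are therefore a description. All 10 passed the filter on low counts that left 14431 genes for testing. The mice were C57BL/6J and carried no engineered allele. From the age of 3 weeks they drank water with 0.4% β-aminopropionitrile (BAPN), an inhibitor of the collagen and elastin cross-linking enzyme lysyl oxidase, for 28 days, or normal water as controls. Male (Ma) and female (Fe) mice were sorted into controls (Con), BAPN-treated mice with no lesion under the microscope (NonAD) and BAPN-treated mice with dissection or aneurysm (AAD). The series held 1 library per mouse, from 10 FeCon, 8 FeNonAD, 9 FeAAD, 10 MaCon, 4 MaNonAD and 7 MaAAD mice, 48 in all. Only mice that survived the treatment were sequenced, so the AAD groups lack the mice that died of rupture, and NonAD and AAD were told apart by their outcome and not by assignment. The study reported more frequent death by rupture in males than in females, so the male survivors are the more selected set. Libraries are named below by group and replicate number, as in FeAAD5.

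Cytokines of this family signal through receptor complexes that share the gp130 chain, encoded by Il6st. A ligand-specific chain completes each complex: Il6ra for interleukin-6, Lifr for leukemia inhibitory factor and Osmr, the oncostatin M receptor chain, which in the mouse is the main partner of gp130 for oncostatin M. The complexes activate Janus kinases and the transcription factor STAT3, and STAT3 switches on Socs3, whose product binds gp130 and dampens the signal, so that Socs3 transcript is a common readout of this pathway. In the vessel wall, macrophages, fibroblasts and smooth muscle cells are known sources and targets of these cytokines.

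The promoter letters of Socs3 and Il6 are shown because Socs3 is the feedback gene of the pathway and Il6 had the largest fitted fold change among the members. Each is the stretch of 250 bases before the RefSeq transcript start in build GRCm38.p6, 5′ to 3′ on the gene's own strand, at chr11:117969367-117969616 (minus strand) for Socs3 and chr5:30012864-30013113 (plus strand) for Il6. The deposited counts were made on another build, GRCm39, and these coordinates were not carried over to it. Capitals mark matches to 3 motifs searched on both strands: the STAT element TTCNNNGAA, the AP-1 element TGANTCA and the NF-kappaB consensus.
Socs3: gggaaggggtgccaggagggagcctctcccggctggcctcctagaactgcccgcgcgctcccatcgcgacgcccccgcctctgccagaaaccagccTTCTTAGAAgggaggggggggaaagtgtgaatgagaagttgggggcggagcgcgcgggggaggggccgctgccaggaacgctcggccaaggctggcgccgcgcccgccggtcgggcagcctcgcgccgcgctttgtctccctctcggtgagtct
Il6: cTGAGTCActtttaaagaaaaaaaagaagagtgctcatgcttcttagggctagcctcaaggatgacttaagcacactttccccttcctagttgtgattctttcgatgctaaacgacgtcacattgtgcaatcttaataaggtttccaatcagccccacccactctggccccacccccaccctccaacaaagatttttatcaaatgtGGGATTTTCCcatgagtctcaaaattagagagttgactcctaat
The Socs3 window held the STAT element, starting 154 bases before the transcript start, and the Il6 window held an AP-1 element at 249 bases and an NF-kappaB match at 44 bases before it. RefSeq windows were found for 9 of the 10 members, as 11 windows, Il11 and Lifr having 2 each. Among these 11 windows the STAT element was found in that of Socs3, the NF-kappaB consensus in that of Il6, and the AP-1 element in those of Il6 and Lif and in 1 of the 2 of Il11. Of all 32851 promoter windows of this length, 7.02% held the STAT element, 6.75% the AP-1 element and 3.9% the NF-kappaB consensus. A match of letters is a description of the window and was not tied to binding in these mice. Osm and Lif lie on chromosome 11 with no protein-coding gene between them, and Osmr and Lifr likewise neighbour each other on chromosome 15.

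Library totals ranged from 13548015 to 17281268 counts, with a median of 15681338.5. CPM below are counts scaled to a TMM-normalised library size of 1000000, so that 1 CPM stood for 13.4 to 17.2 counts. A differentially expressed gene (DEG) had an adjusted p under 0.05 by edgeR's quasi-likelihood test with Benjamini-Hochberg adjustment over all genes tested and a log2 fold change (log2FC) of at least 1 in size, and ± after a log2FC is its standard error. One library stood apart from its group in most of these genes: FeNonAD8, labelled as free of lesions, was the highest of the 8 FeNonAD libraries for Il6, Il11, Lif, Osm, Osmr, Socs3 and Stat3, and values without it are given where it moves a result. In the AAD groups FeAAD5, FeAAD9 and MaAAD7 were the libraries with the highest ligand values. The smooth muscle markers Acta2, Cnn1, Myh11, Smtn and Tagln summed to between 11408 and 58539 CPM in every library, as the label aorta calls for. Bulk RNA cannot tell fewer cells of a type from less RNA per cell.

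Per kilobase of the longest annotated transcript, the most abundant members were Il6st, with group means of 32.7 to 40.4 CPM per kb, and Stat3, with 26.2 to 41.6 CPM per kb. Osmr and Lifr followed at 6.46 to 16.6 and 6.86 to 8.42 CPM per kb, Socs3 ranged from 3.75 to 23.9, and Il6ra stayed between 0.562 and 1.11 CPM per kb. The ligands lay at 0.0224 to 0.677 CPM per kb in the controls, with Lif in MaCon above Il6ra in MaCon, and reached 1.22 to 3.42 CPM per kb in the AAD groups.

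The comparison of AAD with controls asked how the family differed in diseased aortas. All 4 ligands and Socs3 were DEGs in both sexes, all higher in AAD, and Osmr was a DEG in males. That made 5 of 10 members higher and 0 lower in FeAAD vs FeCon, where 9.94% of all tested genes were DEGs in that direction, and 6 of 10 higher and 0 lower in MaAAD vs MaCon, where the share was 9.18%. By the adjusted p alone, 6 members were higher in females, Osmr only narrowly, and 8 in males, beside 23.8% and 18.9% of all tested genes. The median log2FC of the members was 1.21 in females and 1.27 in males, beside a median near 0 over all genes tested (0.0012 and -0.030).

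Il6, the cytokine that gives the family its name, was close to absent from control aortas. FeCon libraries held 0 to 4 counts of Il6 each, 14 in all 10, and MaCon libraries held 0 to 2, 8 in all 10. Every AAD library lay above every control of its sex, with 0.353 to 31.1 CPM (median 5.04) in FeAAD and 0.737 to 14.5 CPM (median 1.51) in MaAAD. Females had a log2FC of 6.26 ± 1.09 (adjusted p = 4.50e-07) and males one of 6.25 ± 1.36 (adjusted p = 3.31e-06). Each fell to 5.62 without the highest library, FeAAD5 or MaAAD7. With so few control counts these fitted values depend on the small count that edgeR adds. The ratio of summed counts per effective library size was 83.5 in females (95% exact interval 49.6 to 153) and 87.8 in males (44.3 to 205), intervals that cover counting error only. The spread within AAD was wide: FeAAD4 and FeAAD8 held 6 counts of Il6 each, at 0.353 and 0.363 CPM, and FeAAD5 held 31.1 CPM.

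Il11, a family ligand known for its part in fibroblast activation, was measured at 0.285 to 0.659 CPM in FeCon (median 0.42) and 0.647 to 9.23 CPM in FeAAD (median 2.81), so that 8 of 9 FeAAD libraries lay above all controls. In males the groups did not overlap, with 0.263 to 0.605 CPM in MaCon (median 0.49) and 0.779 to 12.8 CPM in MaAAD (median 1.75). Il11 rose by 3.03 ± 0.54 log2FC in females (adjusted p = 1.24e-05) and by 3.11 ± 0.56 in males (adjusted p = 1.59e-05), where it was 2.51 without MaAAD7.

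Osm, which encodes oncostatin M and is known as a product of neutrophils, macrophages and T cells, lay at 0.0692 to 0.356 CPM in FeCon (median 0.198) and 0.353 to 19.9 CPM in FeAAD (median 1.81). In MaCon it lay between 0 and 0.492 CPM (median 0.133), and in MaAAD between 0.615 and 9.15 CPM (median 1.44), with no overlap. Osm rose by 4.31 ± 0.65 log2FC in females (adjusted p = 4.00e-07) and by 4.06 ± 0.72 in males (adjusted p = 4.47e-06). Without FeAAD5 the female value was 3.43, and without MaAAD7 the male value was 3.36. Control libraries held 0 to 7 counts of Osm each, so these folds too rest on few control counts. The ratio of summed counts per effective library size was 20.9 in females (95% exact interval 14.5 to 31.2) and 17.6 in males (11.7 to 27.9).

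Lif, which encodes leukemia inhibitory factor, differed from the other ligands in its control level, which was higher in males. FeCon held 0.569 to 1.61 CPM (median 1.00) and FeAAD 1.47 to 28.5 CPM (median 4.28), with 8 of 9 FeAAD libraries above all FeCon. MaCon held 1.55 to 4.27 CPM (median 2.68) and MaAAD 2.05 to 13.1 CPM (median 6.70), and the 2 lowest MaAAD libraries, MaAAD1 and MaAAD4, lay within the MaCon range. Lif rose by 3.04 ± 0.42 log2FC in females (adjusted p = 2.41e-07) and by 1.18 ± 0.43 in males (adjusted p = 0.0256). Without MaAAD7 the male value was 0.88 with an adjusted p of 0.121 and was no longer a call. The male response minus the female response was -1.86 ± 0.60 log2FC and did not pass the test (adjusted p = 0.102).

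**Figure D1:**
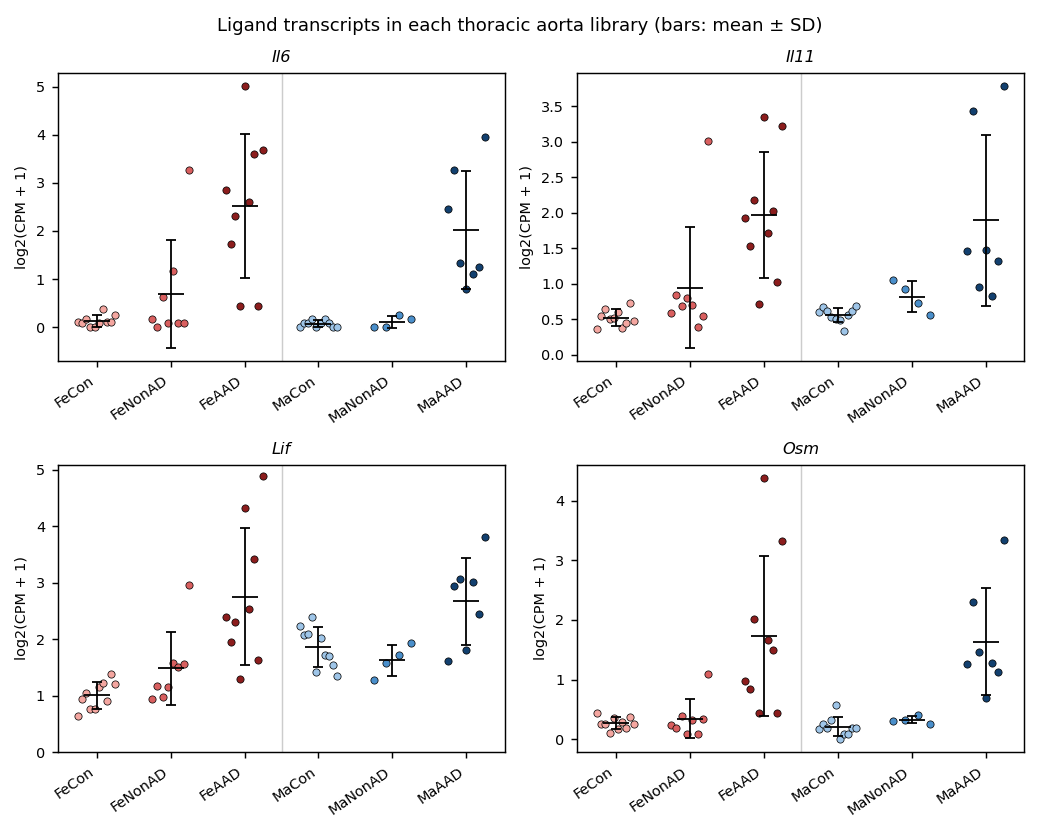
Transcript level of the 4 ligands as log2(CPM + 1) in each of the 48 libraries by group, with points for libraries and bars for mean ± SD. All FeAAD and MaAAD points of Il6 sit above the control points of their sex, FeNonAD8 is the single high FeNonAD point in each panel, and MaCon points of Lif sit mostly above those of FeCon.

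Osmr was the receptor chain with the clearest difference. MaCon libraries held 23.5 to 46.4 CPM (median 34.4) and MaAAD libraries 74.2 to 112 CPM (median 89.2), with no overlap, and Osmr rose by 1.36 ± 0.22 log2FC (adjusted p = 2.71e-06). FeCon libraries were spread from 34.7 to 103 CPM (median 65.5) and overlapped with the 56.7 to 138 CPM of FeAAD (median 77.2). The female log2FC was 0.49 ± 0.20 with an adjusted p of 0.0474, below the fold criterion. That pass was lost without any 1 of FeCon2, FeCon3, FeCon5, FeCon7, FeCon9, FeAAD5, FeAAD6, FeAAD7 or FeAAD9 (log2FC 0.38 to 0.48, adjusted p from 0.0625 to 0.130). The difference between the sexes in this response, 0.87 ± 0.30, did not pass the test (adjusted p = 0.121).

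Il6ra, the interleukin-6 binding chain, was a low transcript in every group. It lay at 0.942 to 8.03 CPM in MaCon (median 5.00) and 6.27 to 11.7 CPM in MaAAD (median 8.54), a log2FC of 0.92 ± 0.28 that passed the adjusted p (0.00851) and missed the fold criterion. In females the 3.67 to 15.5 CPM of FeCon (median 9.25) enclosed the 4.35 to 14.6 CPM of FeAAD (median 7.22), and the log2FC was -0.10 (95% CI -0.63 to 0.43).

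Il6st and Lifr differed little between AAD and controls, though Lifr ranged from 35.5 to 91.3 CPM within FeAAD. Il6st lay between 238 and 438 CPM over all 48 libraries, with a log2FC for AAD vs Con of 0.09 (95% CI -0.07 to 0.26) in females and 0.19 (95% CI 0.02 to 0.37, adjusted p = 0.0840) in males. Lifr gave -0.21 (95% CI -0.45 to 0.03) in females and 0.07 (95% CI -0.18 to 0.32) in males, and its lowest libraries were FeAAD9 at 35.5 CPM, MaCon6 at 47.0 and FeAAD5 at 50.7 CPM. All 4 intervals lie within the size of 1 that the DEG rule asks for.

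**Figure D2:**
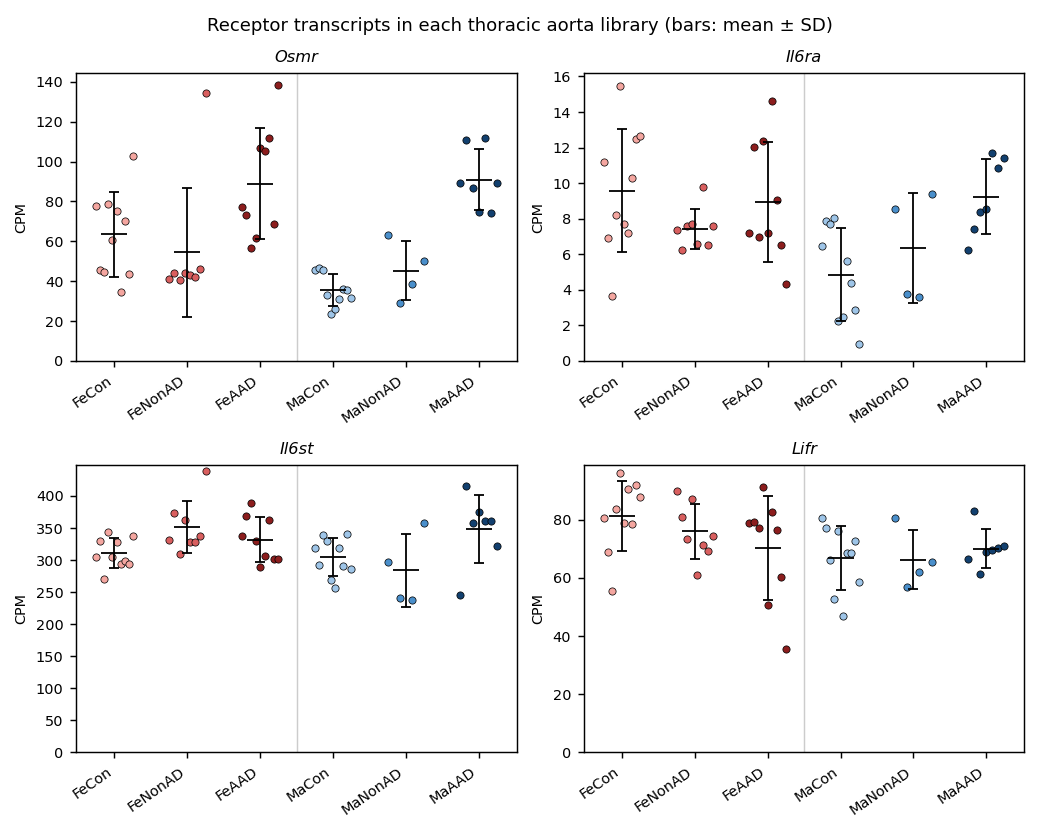
CPM of the 4 receptor chains in each library by group, with points for libraries and bars for mean ± SD, each axis starting at 0. Osmr separates MaAAD (74.2 to 112 CPM) from MaCon (23.5 to 46.4 CPM), FeNonAD8 stands at 134 CPM above the other FeNonAD libraries, and Il6st and Lifr vary little between groups.

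Socs3, the feedback inhibitor, lay at 6.25 to 11.2 CPM in MaCon (median 10.3) and 19.5 to 102 CPM in MaAAD (median 50.9), with no overlap. FeCon libraries held 7.36 to 22.1 CPM (median 16.8) and FeAAD libraries 13.4 to 165 CPM (median 46.4), with 7 of 9 FeAAD libraries above all FeCon. Socs3 rose by 2.57 ± 0.40 log2FC in males (adjusted p = 2.31e-06) and by 1.93 ± 0.37 in females (adjusted p = 5.84e-05). FeAAD4 and FeAAD1, at 13.4 and 20.8 CPM, were the FeAAD libraries that stayed within the control range, and FeAAD4 was also the lowest FeAAD library for all 4 ligands.

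Stat3, the transcription factor itself, was higher in MaAAD than in MaCon by adjusted p alone and did not pass the test in females. MaCon libraries lay tightly at 141 to 169 CPM (median 161) and all 7 MaAAD libraries lay above them, at 176 to 264 CPM (median 229), a log2FC of 0.52 ± 0.11 that passed the adjusted p (2.22e-04) and not the fold criterion. FeCon libraries were spread from 157 to 319 CPM (median 249) around the 179 to 286 CPM of FeAAD (median 222), a log2FC of -0.17 ± 0.10 (adjusted p = 0.182). The male response exceeded the female response by 0.69 ± 0.15 log2FC, which passed the test of the difference (adjusted p = 0.0129, as did 0.783% of all tested genes in that direction) and stayed under the fold criterion. By the DEG rule 0 of the 10 members differed between the sexes in this response, where 0.52% of all genes did, by edgeR and by DESeq2, and 4 had an unadjusted p under 0.05, as did 15.4% of all tested genes. The AAD libraries of the sexes were close in Stat3 (MaAAD vs FeAAD log2FC 0.03, 95% CI -0.20 to 0.26), while 9 of 10 FeCon libraries lay above every MaCon library. Fkbp5, a glucocorticoid-induced gene looked up after its values were seen, was also spread and high in FeCon, at 59.8 to 551 CPM against 18.5 to 223 CPM in MaCon. FeCon1, the highest for Stat3, held 353 CPM of Fkbp5, and FeCon2, the lowest, held 71.0 CPM, while Fkbp5 was highest in FeCon9 and lowest in FeCon3. The medians of Fkbp5 were 235 CPM in FeCon, 61.0 in FeNonAD and 55.6 in FeAAD, beside 97.1 in MaCon, 81.5 in MaNonAD and 73.4 in MaAAD. Transcripts of the daily clock varied as widely, Arntl between 1.18 and 63.8 CPM over the 48 libraries, and differed by group. Arntl lay at 1.62 to 63.1 CPM in MaCon (median 37.7), 2.04 to 11.4 in MaNonAD and 2.40 to 8.04 in MaAAD. In females its medians were 25.1 CPM in FeCon, 4.97 in FeNonAD and 6.90 in FeAAD. Dbp, another clock transcript, had medians of 66.0 CPM in MaCon, 294 in MaNonAD and 241 in MaAAD, beside 299 in FeCon, 289 in FeNonAD and 183 in FeAAD. A list of 8 immediate early and heat shock genes, which respond to handling, moved in the same contrast: their sum was 489 to 3301 CPM in MaCon (median 1055) and 307 to 458 in MaAAD, beside 443 to 1260 in FeCon and 476 to 2194 in FeAAD. Of the 8, 3 were lower DEGs in MaAAD vs MaCon (Atf3, Hspa1a and Hspa1b), 2 were higher DEGs in FeAAD vs FeCon (Fos and Fosb, the latter not without FeAAD3) and 2, Hspa1a and Hspa1b, had a lower response in males by the DEG rule and were higher in MaCon than in FeCon. Hspa1a and Hspa1b are near-identical genes whose reads are hard to tell apart. The part of these transcripts in the values of Stat3 and of the other members was not tested.

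**Figure D3:**
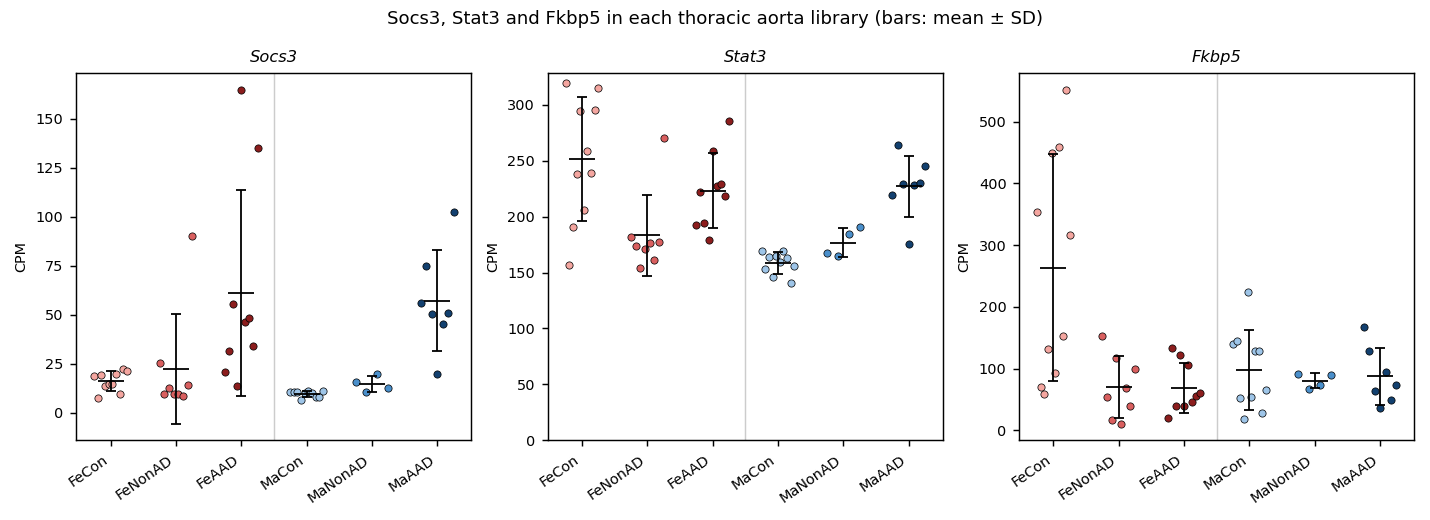
CPM of Socs3, Stat3 and Fkbp5 in each library by group, with points for libraries and bars for mean ± SD. Socs3 reaches 165 CPM in FeAAD and 102 CPM in MaAAD, and Stat3 and Fkbp5 are spread in FeCon (157 to 319 and 59.8 to 551 CPM).

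BAPN-treated mice without lesions were compared with controls to ask whether the family differed in treated mice where no lesion was seen. These mice were taken at the same endpoint as the AAD mice and are not an earlier time point. In FeNonAD vs FeCon, 2 of 10 members, Il6 and Il11, were DEGs, both higher, beside 1.67% of all tested genes in that direction. Both calls rested on FeNonAD8. Il6 lay between 0 and 1.24 CPM in the other 7 FeNonAD libraries and at 8.66 CPM in FeNonAD8. Its log2FC was 3.69 ± 1.12 (adjusted p = 0.00792) with that library and 1.57 (adjusted p = 0.293) without it. Il11 lay between 0.306 and 0.799 CPM in the other 7 and at 7.07 CPM in FeNonAD8, and its log2FC went from 1.64 ± 0.57 (adjusted p = 0.0408) to 0.38 (adjusted p = 0.670). The Il11 call was also lost without FeCon1, FeCon4, FeCon5, FeCon7, FeCon8 or FeCon10, with adjusted p of 0.0554 or more. The same library held 6.82 CPM of Lif, 1.15 CPM of Osm, 90.1 CPM of Socs3, 134 CPM of Osmr and 270 CPM of Stat3, values within the range of FeAAD for each of these genes. Without it, the log2FC of Osm and Socs3 changed sign, from 0.51 to -0.20 and from 0.47 to -0.35, none of which passed the test, and Osmr went from -0.22 (adjusted p = 0.519) to -0.56, which passed the adjusted p (0.0365). The summed macrophage markers were 442 CPM in FeNonAD8, the highest of its group, and the summed neutrophil markers 7.58 CPM. Stat3 was lower in FeNonAD than in FeCon by adjusted p alone, as were 7.67% of all tested genes, with 154 to 270 CPM (median 175), a log2FC of -0.46 ± 0.11 (adjusted p = 0.00361) that was -0.56 without FeNonAD8 (adjusted p = 3.84e-04).

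In MaNonAD vs MaCon, 0 of 10 members were DEGs or passed the adjusted p by edgeR, where 0.478% of all tested genes were DEGs and 0.624% passed the adjusted p, and DESeq2 also called 0. None of the 10 had an unadjusted p under 0.05, beside 12% of all tested genes. The 4 MaNonAD libraries held 0, 0, 3 and 2 counts of Il6, and no fold is given for it. Socs3 in these 4 libraries was 15.6, 10.5, 19.7 and 12.8 CPM, 3 of them above the MaCon maximum, with a log2FC of 0.61 (95% CI -0.38 to 1.60). Osm was 0.240, 0.255, 0.329 and 0.200 CPM (log2FC 0.65, 95% CI -1.32 to 2.63), and Il11 was 1.08, 0.891, 0.657 and 0.467 CPM (log2FC 0.69, 95% CI -0.75 to 2.13). With 4 libraries the intervals of the ligands still hold changes larger than the fold criterion. The NonAD vs Con response was a DEG between the sexes for 0 of 10 members by edgeR, where 0.298% of all tested genes were, and for 0 by DESeq2, with Stat3 the 1 member at an unadjusted p under 0.05 (12.1% of all tested genes). Without FeNonAD8 that difference of Stat3 went from 0.61 (adjusted p = 0.0833) to 0.72 and passed the adjusted p (0.0228), and the DEGs stayed at 0.

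AAD and NonAD mice were also compared within each sex. In FeAAD vs FeNonAD, 4 of 10 members, Il6, Lif, Osm and Socs3, were DEGs and higher in AAD, beside 6.79% of all tested genes in that direction. The log2FC was 3.80 ± 0.65 for Osm (adjusted p = 9.96e-05), 2.57 ± 0.72 for Il6 (adjusted p = 0.0129), 2.00 ± 0.43 for Lif (adjusted p = 9.72e-04) and 1.45 ± 0.39 for Socs3 (adjusted p = 0.00901). Without FeNonAD8 these were 4.52 for Osm, 4.69 for Il6, 2.55 for Lif and 2.27 for Socs3, so that the order of Osm and Il6 turned, and Stat3 passed the adjusted p (0.39, adjusted p = 0.00678) and not the fold criterion. There were then 6 calls, with Il11 (2.65, adjusted p = 9.31e-05) and Osmr (1.05, adjusted p = 6.87e-05) added, and Il11 was also called without FeAAD2, FeAAD4 or FeAAD8. Without FeAAD5, Il6 (1.93, adjusted p = 0.0788) and Socs3 (1.11, adjusted p = 0.0570) were no longer called, and with FeAAD5, FeAAD9 and MaAAD7 all left out Osm remained as the single call (2.15, adjusted p = 0.00190). Osm was 2.92 without FeAAD5. Markers of other cells moved in this comparison too: 5 of 6 macrophage, 5 of 5 tested neutrophil, 5 of 5 red blood cell and 3 of 4 B cell markers were higher DEGs in FeAAD than in FeNonAD. The red blood cell calls rested on FeAAD2 (log2FC 2.92 to 3.11 with it, 0.59 to 0.81 and 0 calls without it), the B cell calls went to 0 without FeAAD9, and the macrophage calls to 3 without FeAAD5. In MaAAD vs MaNonAD, 1 of 6 macrophage and 0 of 5 tested neutrophil markers were DEGs by edgeR, 4 and 4 by DESeq2, and 6 and 4 had an unadjusted p under 0.05, with median log2FC of 1.39 and 3.72 beside 1.33 and 4.85 in females. The part of these cells in the members' values was not tested.

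In MaAAD vs MaNonAD, Il6 was the single DEG among the 10 members (log2FC 5.71 ± 1.71, adjusted p = 0.0497), where 0.353% of all tested genes were DEGs. The ratio of summed Il6 counts was 58.3 (95% exact interval 24.8 to 180), on 5 counts in the 4 MaNonAD libraries. Osm (3.40 ± 0.90, adjusted p = 0.0507), Socs3 (1.96 ± 0.51, adjusted p = 0.0534), Osmr (1.01 ± 0.28, adjusted p = 0.0546) and Il11 (2.42 ± 0.70, adjusted p = 0.0674) lay just past the threshold. The count of calls ranged from 0 to 5 when 1 library at a time was left out, and was 5 by DESeq2. The Il6 call was lost without MaNonAD2, MaNonAD3, MaNonAD4, MaAAD3, MaAAD5, MaAAD6 or MaAAD7 (log2FC 5.08 to 6.53, adjusted p from 0.0582 to 0.287). Without MaAAD1 the other 4 were called too, as Osm and Socs3 were without MaAAD2 or MaAAD4 and Osmr without MaAAD4 or MaNonAD1. For the difference between the sexes in AAD minus NonAD, 0 of 10 members were DEGs by edgeR, where 0% of all tested genes were, and by DESeq2, and 1 member, Il6st, had an unadjusted p under 0.05 (1.03% of all tested genes). Without FeNonAD8 the members called were 0 as well. For Il6 no interval of that difference is given, because MaNonAD held 5 counts in all.

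**Figure D4:**
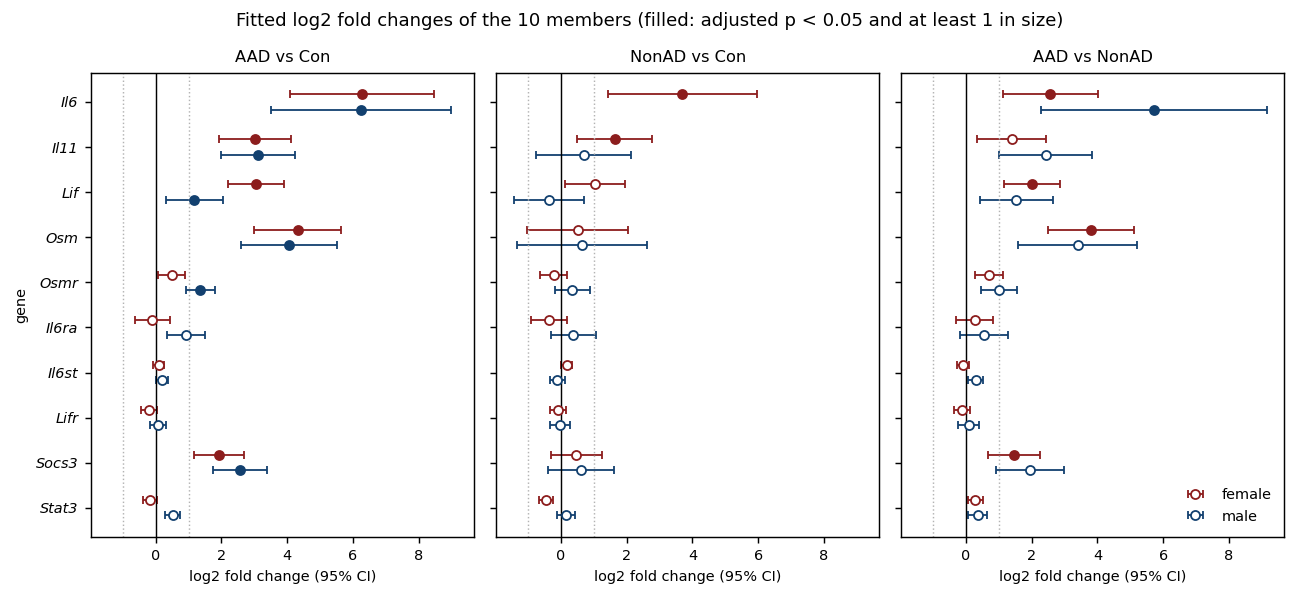
Fitted log2FC with 95% confidence intervals for the 10 members in AAD vs Con, NonAD vs Con and AAD vs NonAD, females in red and males in blue, filled where the gene was a DEG and open where it was not. The 4 ligands and Socs3 lie to the right of 1 in AAD vs Con in both sexes, Il6st and Lifr lie near 0 throughout, and Il6 in MaNonAD vs MaCon is not drawn because both groups were at 0 to 3 counts per library.

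Between the sexes, the controls differed in 1 member by the DEG rule, Lif, beside 0.644% of all tested genes in its direction. Lif was higher in MaCon than in FeCon by 1.39 ± 0.42 log2FC (adjusted p = 0.0225), with 9 of 10 MaCon libraries above all FeCon. Osmr (-0.84 ± 0.20, adjusted p = 0.00383), Il6ra (-0.98 ± 0.26, adjusted p = 0.00953) and Stat3 (-0.66 ± 0.10, adjusted p = 2.06e-05) were lower in MaCon by adjusted p alone, as were 7.92% of all tested genes. T cell markers moved in this comparison, with 2 of 4 higher DEGs in MaCon by edgeR (0 to 4 with 1 library left out) and 3 by DESeq2, and their part was not tested. Male and female mice were caged apart, so sex and cage cannot be told apart here. None of the 10 members was a DEG in MaNonAD vs FeNonAD or in MaAAD vs FeAAD by edgeR, where 0.0485% and 0.0693% of all tested genes were DEGs, and DESeq2 called 0 in both. At an unadjusted p under 0.05 there were 2 members, Il6 and Il6st, in MaNonAD vs FeNonAD and 0 in MaAAD vs FeAAD, beside 6.48% and 2.22% of all tested genes. FeNonAD8 held 136 of the 170 Il6 counts of FeNonAD, and the 0 DEGs in MaNonAD vs FeNonAD stood without it too. The MaAAD vs FeAAD intervals reached from -2.22 to 0.63 log2FC for Il6, -1.74 to 0.50 for Osm, -1.32 to 0.40 for Lif and -0.84 to 1.24 for Il11. Differences of more than 1 thus lie within the intervals of all 4 ligands. The interval of Socs3 reached from -0.91 to 0.71.

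The other genes of the pathway were counted in the AAD comparisons. Of 7 further cytokines of the family counted here, 4 were tested and 1, Ebi3, was a DEG in both sexes. Beside it, 9.94% and 9.18% of all tested genes were higher DEGs in females and males. Ebi3, a subunit shared by interleukin-27 and interleukin-35, rose by 2.41 ± 0.33 in females (adjusted p = 1.00e-07) and by 1.44 ± 0.33 in males (adjusted p = 5.03e-04). Of 4 other receptor chains, Cntfr, the ciliary neurotrophic factor receptor, was the single DEG in each sex and fell (2.78% and 2.17% of all tested genes were lower DEGs in females and males), by 1.00 log2FC in females (adjusted p = 0.00263) and by 1.08 in males (adjusted p = 0.00351). Its size was at the fold criterion, and the call was lost on leaving out any 1 of 10 of 19 libraries in females (FeCon2, FeCon3, FeCon5, FeCon7, FeCon8, FeCon9, FeAAD3, FeAAD5, FeAAD7 or FeAAD9, log2FC -0.997 to -0.868) and any 1 of 4 of 17 in males (MaCon5, MaCon10, MaAAD3 or MaAAD7, -0.9996 to -0.938).

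The receptor sheddases Adam10 and Adam17, which release soluble receptors from the cell surface, both stayed under the fold criterion, with log2FC of 0.19 to 0.66. They were higher by adjusted p in females, as Adam10 was in males, beside 23.8% and 18.9% of all tested genes in females and males. Of the 6 kinases and other signalling genes counted here, 0 were DEGs in either sex by edgeR or DESeq2, and 4 in each sex had an unadjusted p under 0.05, beside 50.7% of all tested genes in females and 43.6% in males. Among 7 negative regulators beside Socs3, Ptpn6 rose in both sexes, by 2.54 ± 0.33 in females (adjusted p = 9.29e-08) and by 2.28 ± 0.35 in males (adjusted p = 1.66e-06). Ptpn6 encodes SHP-1, a phosphatase best known from blood cells. Socs2 fell in females, by 1.08 log2FC (adjusted p = 8.96e-05), with FeCon spread from 30.4 to 153 CPM, and was no longer a call without FeCon7 (-0.86) or FeCon9 (-0.92).

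Genes known as STAT3 targets or acute phase genes were a list of 22, of which 20 were tested. In FeAAD vs FeCon 9 of them were DEGs, all higher, with a median log2FC of 0.80 over the 20, and in MaAAD vs MaCon 11 were DEGs, all higher, with a median of 1.44, beside 9.94% and 9.18% of all tested genes that were higher DEGs. Of these, 9 were called in both sexes: Bcl3, Ccl2, Hp, Il4ra, Lcn2, Lrg1, Saa3, Serpina3n and Timp1. Timp1, a metalloproteinase inhibitor, went from 16.9 to 35.0 CPM in FeCon to 56.6 to 2045 CPM in FeAAD (log2FC 4.35 ± 0.49, adjusted p = 1.86e-08). Ccl2, a monocyte chemokine, rose by 3.60 ± 0.63 in females (adjusted p = 1.82e-05) and by 5.17 ± 0.74 in males (adjusted p = 4.95e-07). Lcn2, an iron-siderophore binding protein of neutrophils and injured tissue, rose by 4.53 ± 0.65 in males (adjusted p = 5.70e-07), where MaAAD held 5.04 to 65.7 CPM and MaCon 0.267 to 1.86. Saa3, an acute phase protein, gave the largest values among the called genes of the list with at least 10 counts per library on average. They were 5.61 ± 1.27 for FeAAD (adjusted p = 2.15e-05) and 5.52 ± 1.06 for MaAAD (adjusted p = 1.44e-05), on control levels of at most 0.705 CPM. FeAAD5 held 347 of the 616 Saa3 counts of FeAAD, MaAAD7 549 of the 835 of MaAAD, and FeAAD5 2550 of the 4345 Ccl2 counts of FeAAD. The calls of both genes stood with any 1 library left out. Many of these genes answer to other inflammatory signals too, and several are abundant in leukocytes.

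The markers of other cells moved in the same comparisons, where 9.94% and 9.18% of all tested genes were higher DEGs and 2.78% and 2.17% lower ones in females and males. The summed level of 6 macrophage markers was 110 to 277 CPM in FeCon and 287 to 1407 in FeAAD, and 96.5 to 270 CPM in MaCon and 391 to 1360 in MaAAD, and all 6 were DEGs and higher in both sexes. Of 6 neutrophil markers 5 were tested, with 5 DEGs in females and 4 in males (2 without MaAAD7), and their sum was 1.13 to 5.76 CPM in FeCon, 5.88 to 881 in FeAAD, 1.54 to 10.2 in MaCon and 8.30 to 237 in MaAAD. The neutrophil marker Ly6g was at 0 counts in most libraries of both AAD groups, with 8 counts in all 9 FeAAD and 3 in all 7 MaAAD libraries. FeAAD5, FeAAD9 and MaAAD7, highest for Osm in their groups, held the highest neutrophil sums, 881, 200.4 and 237 CPM, while their macrophage sums were 1407, 289.7 and 1360 CPM. The smooth muscle sum was 29034 to 50332 CPM in FeCon and 13670 to 30901 in FeAAD, and 26721 to 58539 in MaCon and 11408 to 28468 in MaAAD, and all 5 markers were lower by adjusted p in both sexes, with 2 DEGs in females (2 to 3 with 1 library left out) and 3 in males (1 to 4). Of 4 B cell markers, 4 were higher DEGs in females and 2 in males (1 without MaAAD1, MaAAD4, MaAAD7, MaCon5, MaCon7, MaCon8 or MaCon9), on sums of at most 26.2 CPM in AAD. Of 5 heart muscle markers 4 were lower DEGs in females, and 2 without FeCon10, which held 555 CPM of their sum against 147 in the next FeCon library. The 5 red blood cell markers were all DEGs in FeAAD vs FeCon, also without FeAAD2, which held 26918 CPM of their sum against 2134 for the next FeAAD library, and 0 of 5 were DEGs in MaAAD vs MaCon by edgeR and DESeq2 (0 at an unadjusted p under 0.05). The medians of that sum were 243 CPM in FeCon, 640 in FeAAD, 451 in MaCon and 886 in MaAAD, and the difference between the sexes in the response passed the DEG rule for 0 of 5 by edgeR and 1 of 5 by DESeq2, with 5 at an unadjusted p under 0.05. Of the T cell markers, 0 of 4 were DEGs or had an unadjusted p under 0.05 in either sex by edgeR, and 0 by DESeq2. Of 5 fibroblast markers 1 was a higher DEG in each sex (0 to 1 in females with 1 library left out). Their sum was 2799 to 4287 CPM in FeCon, 905 (FeAAD9) to 4613 in FeAAD, 2639 to 3625 in MaCon and 2539 (MaAAD7) to 4274 in MaAAD. Of 3 mesothelial markers 1 was a lower DEG in females and 0 were DEGs in males, and 0 of 5 endothelial markers were DEGs in either sex. Without FeAAD5, FeAAD9 and MaAAD7 the AAD vs Con calls were 5 in females and 5 in males, at smaller sizes but for Osmr in males (log2FC 1.36 with and without them). The female log2FC went from 4.31 to 2.66 for Osm, from 3.04 to 2.00 for Lif, from 6.26 to 5.32 for Il6, from 3.03 to 2.29 for Il11 and from 1.93 to 1.15 for Socs3, and Stat3 was then lower in FeAAD by adjusted p (-0.27, adjusted p = 0.0476). The male log2FC was 3.36 for Osm, 5.62 for Il6, 2.51 for Il11 and 2.37 for Socs3, and Lif, at 0.89, was no longer a call. The part of these cells in the family's values was not tested.

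Within the AAD groups, Socs3 was compared with each ligand over libraries, and 5 of the 8 relations passed by both r and rho, 4 in females and that of Il6 in males. Many other genes varied with Socs3 over the same libraries: in FeAAD an r at least as high as that of Osm was found for 0.437% of the other tested genes, of Il11 for 1.56%, of Lif for 3.02% and of Il6 for 12%, and in MaAAD the shares were 0.465% for Osm, 0.638% for Il6, 6.11% for Lif and 6.44% for Il11. FeAAD5, FeAAD9 and MaAAD7, the highest of their groups for Osm and Socs3, also held the highest neutrophil marker sums, and the part of those cells was not tested. Over the 9 FeAAD libraries, Pearson's r between log2(CPM + 1) of Socs3 and that of Osm was 0.933 (Spearman's rho 0.917, two-sided exact permutation p = 2.34e-04 for r and 0.00131 for rho, adjusted 0.00187 and 0.00820 over the 8 relations computed). The other ligands gave r = 0.908 for Il11, 0.889 for Lif and 0.789 for Il6 in FeAAD, with adjusted exact permutation p of 0.00627, 0.00627 and 0.0194 for r, and rho of 0.883, 0.783 and 0.750, with adjusted exact permutation p of 0.00820, 0.0344 and 0.0408. Leaving out the 2 libraries farthest from the median ligand value lowered r to 0.782 for Osm, 0.679 for Il11, 0.643 for Lif and 0.485 for Il6, so the female relations rest in part on FeAAD5 and FeAAD9, or FeAAD4 and FeAAD5 for Il6. Over the 7 MaAAD libraries, Il6 gave r = 0.847 and rho = 0.964 (adjusted exact permutation p = 0.00794 and 0.00820), with r = 0.643 over the 5 libraries left after the same step. Osm gave r = 0.860 and rho = 0.714 in MaAAD (adjusted exact permutation p = 0.0249 and 0.117), with r = 0.886 without the 2 farthest. The male relations of Il11 (r = 0.657, rho = 0.643) and Lif (r = 0.664, rho = 0.286) did not pass the exact permutation test (adjusted p for r of 0.112 for both, for rho of 0.159 and 0.556), and r was -0.359 for Il11 and 0.727 for Lif without the 2 farthest.

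**Figure D5:**
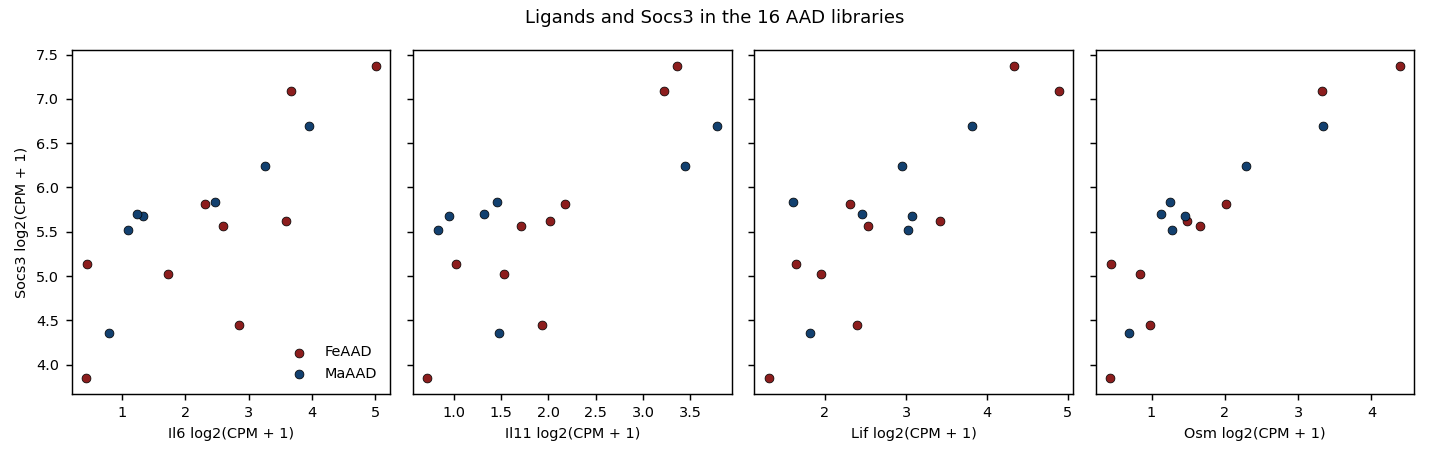
Socs3 against each ligand, both as log2(CPM + 1), in the 9 FeAAD and 7 MaAAD libraries, 1 point per library. Osm and Socs3 gave r = 0.933 in FeAAD and 0.860 in MaAAD (the latter did not pass by rho), and the upper right points are FeAAD5, FeAAD9 and MaAAD7.

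As a description over all 48 libraries, deviations of log2(CPM + 1) from the group means were correlated between each of Il6, Osm, Osmr and Socs3 and 13700 other tested genes. These had at least 10 counts per library on average and left out the members, so that nearest below means nearest among non-members. The points share their libraries and depths, and no test is attached. Each FeCon, MaCon and MaNonAD library held 0 to 4 counts of Il6 and 0 to 7 of Osm. The r values of these genes thus rest mainly on the AAD and FeNonAD libraries, and none was computed without the highest ones. Nearest to Il6 were Ptx3 (r = 0.910), which encodes the acute phase protein pentraxin 3, Myd88 (0.828), an adaptor of Toll-like and interleukin-1 receptors, and Ccl7 (0.825), a monocyte chemokine. Nearest to Osm were Cxcl2 (0.927), a neutrophil chemokine, Il1r2 (0.910), the interleukin-1 decoy receptor, and Cxcl3 (0.909), another chemokine for neutrophils. Osmr had lower values, with Nod1 (0.780), Runx1 (0.767) and Kctd11 (0.759). Socs3 was nearest to Sbno2 (0.843), Pdpn (0.823), the membrane protein podoplanin, and Rnf19b (0.807). Among the members themselves Il6 and Il11 were most alike (r = 0.880), followed by Il6 and Osm (0.826).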

How the data were processed

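Strand-specific mRNA libraries of the thoracic aorta were sequenced, 1 per mouse. The deposited values were expected counts per gene, named by symbol: the authors aligned reads with Bowtie2 and counted them with RSEM 1.3.1 on build GRCm39, per the submitters' processing notes. Of all values 4.993% were not whole and were rounded, and none of the 10 members had such values. Groups and replicate numbers came from the sample titles, and all 48 columns were used.

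Genes were filtered with filterByExpr and scaled with TMM, and 1 model over the 6 groups was fitted with edgeR 4.0.16 (R 4.3.3), quasi-likelihood and robust, with p-values adjusted by the Benjamini-Hochberg method over all 14431 genes tested. The procedure was tested on simulated data. Calls were made at an adjusted p under 0.05 with a log2 fold change of 1 or more in size. Standard errors and 95% intervals are of the Wald kind with the quasi-likelihood variance. CPM use TMM-scaled totals. Correlations used exact permutation tests (SciPy 1.17.1). The authors' fold changes were not used here.

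Other settings tried were DESeq2 1.42.0 as the tool or as the source of size factors, all genes with a count kept, plain in place of robust estimation, a fit of the compared groups alone, calls by adjusted p alone, a replicate block, and libraries left out. The members and gene lists were chosen with earlier results of these data known. Some genes of the pathway lists are not reported here and are left out of the counts. Named pathway genes were the up to 3 with the largest change per list and sex among those called with at least 10 counts per library on average. Transcript lengths came from GENCODE M21 and promoters from RefSeq GRCm38.p6. Cages held mice of 1 sex and 1 treatment, so treatment and cage cannot be told apart, and the p-values measure the spread between mice. Depth set the precision: a gene at 3 counts or fewer in a library cannot be told from absence.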

Additional observations from a re-analysis of the deposited data

Results flagged for a closer look

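In each group of 4 to 10 libraries, the highest and the lowest value of each member were compared with the nearest other value by Dixon's criterion. Chance meets it in about 1 in 20 groups of normally distributed values, a rate that need not hold for CPM of genes with few counts. Of 60 such groups, 12 met it, all at the highest value, and no excess over chance is claimed. FeNonAD8 accounted for 7 of them, as the highest of the 8 FeNonAD libraries: Il6 at 8.66 CPM against 1.24 for the next library, Il11 at 7.07 against 0.799, Lif at 6.82 against 1.98, Osm at 1.15 against 0.305, Osmr at 134 against 46.2, Socs3 at 90.1 against 25.4 and Stat3 at 270 against 182 CPM. These are 7 genes of 1 library and not 7 independent events. In FeAAD, the library FeAAD5 stood apart for Il6 (31.1 CPM against 11.8 for the next) and Osm (19.9 against 9.06). MaAAD7 stood apart for Osm, at 9.15 against 3.91 CPM. The others were MaCon5 for Osm, at 0.492 against 0.255 CPM, and FeNonAD6 for Il6ra, at 9.80 against 7.68 CPM.

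The response of Stat3 to AAD differed between the sexes by the test of the difference: the log2FC of males minus that of females was 0.69, with an adjusted p of 0.0129 by edgeR. It passed the adjusted p in each of the 44 alternatives and libraries left out, with log2FC from 0.65 to 0.77 and adjusted p from 0.0013 to 0.030.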

How the results depend on the processing

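The counts of called members for FeAAD vs FeCon (5) and MaAAD vs MaCon (6) stayed within 1.5 times under every alternative and every single library left out, with 1 exception: fitted on the 2 groups alone, FeAAD vs FeCon had 3 calls, because Il6 and Osm failed the filter on low counts there and were not tested. In that fit FeNonAD vs FeCon had 1 call, Lif, with Il6, Il11 and Osm not tested, FeAAD vs FeNonAD had 2, Lif and Osm, and MaAAD vs MaNonAD 0. MaAAD vs MaNonAD was the least stable comparison: beside 1 call as reported, it had 2 with DESeq2 size factors, 0 with no filter on low counts and 5 by DESeq2, and 0 to 5 with 1 library left out. With 1 library left out the calls were 0 to 2 for FeNonAD vs FeCon, 2 to 6 for FeAAD vs FeNonAD and 1 to 2 for MaCon vs FeCon, where Il6ra was called (-1.08 to -1.01) without any 1 of MaCon1 to MaCon4, FeCon2, FeCon3, FeCon6 or FeCon7. Il6ra in MaAAD vs MaCon was called without MaCon2, MaCon3, MaCon4 or MaAAD1 (1.01 to 1.05). By the adjusted p alone MaCon vs FeCon had 4 calls, and 1 member, Stat3, differed between the sexes in its AAD response. Leaving out every library in turn beyond the MaNonAD ones, and FeAAD5, FeAAD9 and MaAAD7 together, was chosen after seeing the data: the latter gave 1 call in FeAAD vs FeNonAD and 3 in MaAAD vs MaNonAD.

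Signs that changed belonged to log2FC that did not pass the test. With the 3 libraries left out together, Il6ra in FeAAD vs FeCon was 0.041 and Lifr in FeAAD vs FeNonAD 0.040, and with no filter Lifr in MaNonAD vs MaCon was 0.0083. With 1 library left out, Il6ra in FeAAD vs FeCon ranged from -0.22 to 0.0073, Lifr in MaNonAD vs MaCon from -0.12 to 0.083, and, in FeNonAD vs FeCon, Osm from -0.20 to 0.67 and Socs3 from -0.35 to 0.61.

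Replicate numbers were shared by the groups, but they did not pair the libraries: the mean correlation of deviations between same-numbered libraries was -0.066 to 0.16 over the comparisons. A fit with the replicate number as a block gave 0 calls in FeNonAD vs FeCon, 5 in FeAAD vs FeNonAD, 0 in MaAAD vs MaNonAD and 2 in MaCon vs FeCon, and the cause was not tested.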
